A study of Mus musculus with 45 samples.

Results

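The Krüppel-like factors (KLFs) described here are 10 genes, Klf2, Klf3, Klf4, Klf5, Klf6, Klf7, Klf9, Klf10, Klf11 and Klf13, of the 28454 genes in the count table, which lists 16 KLF genes in all. The members were picked by symbol with the response to cysteine and cystine deprivation already known, so their values in that comparison are given as a description and carry no test. Klf16, which was lower in every deprived line, is not among them and is shown beside them, and Klf14 was not analysed here. RNA was sequenced from 45 libraries of 11 mouse mammary tumour cell lines, 3 cultures for each of 15 combinations of line and medium, and the series calls the 3 cultures technical replicates, so the spread between them measures culture and library and not separate tumours or animals. All lines descend from tumours of MMTV-cMYC mice, in which the mouse mammary tumour virus promoter drives the cMYC transgene, and the controls carry that transgene too.

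MYAZ16.1e, MYAZ12.3i and MYAZ6.6g came from primary mammary tumours, and Myc310 from a tumour of a mouse that had multiple tumours. LM1, LM2 and LM3 were recovered from the lungs of mice whose mammary fat pads had received Myc310 cells, and LM1-LM, LM2-LM and LM3-LM likewise from the lungs of mice given LM1 cells. The lung-derived lines are therefore descendants of 1 parent and not independent of each other. MYAZ12.3i-NDI1 carries the name of the yeast NADH dehydrogenase NDI1 in its label. Cells were seeded at 250000 per well in DMEM:F12 medium with serum, insulin, hydrocortisone and EGF. After 24 h, cultures of 4 lines (MYAZ16.1e, the parental Myc310, and the lung-derived LM1 and LM1-LM) were moved to control medium or to medium without cysteine and cystine for 6 h, and values below follow that order of lines unless stated. The other 7 lines have control libraries only.

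KLFs are transcription factors with zinc fingers at the end of the protein that bind GC boxes and CACCC boxes, the sites they share with the related SP factors. One branch of the family, with Klf2, Klf4, Klf5, Klf6 and Klf7, mostly activates transcription through acetyltransferases. A second branch, with Klf3, Klf8 and Klf12, represses through the corepressor CtBP, and a further branch, with Klf9, Klf10, Klf11, Klf13, Klf14 and Klf16, recruits the SIN3 corepressor. Several members are known as early response genes to serum, growth factors, hormones and stress, and Klf4 and Klf5 are known regulators of epithelial growth and differentiation.

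Libraries held 19517859 to 29019988 counts, with a median of 22899900. All 10 members were detected in all 45 libraries, the lowest count being 5 for Klf4 in a library of LM2-LM. Levels are given as CPM, counts scaled by the library total times a TMM factor, a per-library correction for composition estimated over all 45 libraries. The keratins Krt8 (219 to 1704 CPM over group means) and Krt18 (up to 546 CPM) marked the lines as keratin-positive. The defining epithelial genes, by contrast, were absent or close to it. Cldn4 and Esrp1 were at 3 counts or fewer in every library, and the highest group means were 0.673 CPM for Epcam and 0.268 CPM for Cdh1. Markers of endothelial cells and leukocytes, which use Klf2 and Klf4 strongly, were also read. The summed level of 7 endothelial markers was 0.0940 to 5.13 CPM in deprived libraries and 0.141 to 7.08 CPM in controls, with Tie1 and Erg at 3 counts or fewer throughout. The summed level of 7 leukocyte markers was 6.15 to 16.8 CPM in deprived libraries and 2.77 to 19.9 CPM in controls. Most of it was Cd68, at 3.50 to 16.7 CPM over group means, whereas Lyz2 stayed at 3 counts or fewer in every library. In bulk RNA, fewer cells of a kind and less RNA per cell cannot be told apart.

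The promoters of Klf4, Klf6 and Klf11 are shown because they held the E-box CACGTG, the site bound by MYC, MAX, TFE3 and related factors. No other member did among the 8 (all but Klf5 and Klf10) with a promoter in the RefSeq table (GRCm38.p6). Whether the E-box bears on the response to deprivation was not tested. On both strands of the 250 bases before each RefSeq start, 10 motifs were searched. By the GENCODE positions the Klf7 window lies inside the gene, as do parts of the Klf2, Klf3, Klf6 and Klf11 windows. The E-box occurred in 3 of 8 member windows and in 6.02% of all 32851 windows. The E-box is printed in capitals, and each run stops at the earlier of the RefSeq and GENCODE starts.
Klf4, chr4:55532476-55532725, minus strand: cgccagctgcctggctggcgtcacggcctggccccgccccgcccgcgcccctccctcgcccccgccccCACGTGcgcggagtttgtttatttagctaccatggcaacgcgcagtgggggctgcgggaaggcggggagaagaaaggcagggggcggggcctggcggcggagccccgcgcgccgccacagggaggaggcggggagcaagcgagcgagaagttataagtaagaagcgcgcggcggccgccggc
Klf6, chr13:5861239-5861481, plus strand: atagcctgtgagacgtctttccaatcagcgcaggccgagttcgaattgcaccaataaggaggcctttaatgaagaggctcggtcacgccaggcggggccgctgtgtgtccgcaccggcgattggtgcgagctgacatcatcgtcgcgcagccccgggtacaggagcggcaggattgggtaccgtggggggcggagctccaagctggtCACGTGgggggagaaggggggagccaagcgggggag
Klf11, chr12:24651121-24651273, plus strand: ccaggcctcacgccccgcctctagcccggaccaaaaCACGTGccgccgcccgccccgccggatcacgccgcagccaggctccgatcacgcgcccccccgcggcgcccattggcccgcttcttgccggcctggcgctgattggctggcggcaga
Counted from the RefSeq start, the E-box began 182 bases upstream in Klf4, 43 in Klf6 and 214 in Klf11, and the printed runs of Klf6 and Klf11 end before that start. A match is a run of letters and not a bound site, and the windows of the members were richer in G and C (59.2% to 78.4%) than the median window (52.4%).

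The other motifs were spread differently over the members. The GC box GGGCGG, a site for SP and KLF proteins themselves, was in 7 of 8 member windows against 32.7% of all windows, and the CACCC box in 5 of 8 against 52.0%. The core TGACG of the cAMP response element was in 4 of 8 (Klf2, Klf4, Klf9 and Klf13; 17.8% of all windows), and the CCAAT box in 4 of 8 (Klf6, Klf9, Klf11 and Klf13; 33.8%). The antioxidant response element core TGANNNNGC, which can share letters with TGACG, was in 3 of 8 (Klf3, Klf6 and Klf11; 35.2%), and the AP-1 site TGANTCA in 1, Klf9 (6.75%). The core TGATGNAA, the kind of site bound by ATF4 with C/EBP partners, was in none of the 8 windows (3.45%), nor was the TATA box TATAAA (12.4%) or the CArG box bound by SRF (1.47%). No match says only that these letters are not in this window.

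In medium without cysteine and cystine, most members were higher within 6 h, led by Klf6, Klf4, Klf5 and Klf11, while Klf13 and Klf2 had the log2 fold changes nearest to zero in all 4 lines. In the edgeR fit over 13400 genes, 9 of 10 members passed the threshold (adjusted p under 0.05) as higher in MYAZ16.1e, where 26.6% of all genes did, and 9 in Myc310, where 32.8% did. The counts were 8 in LM1 (35.8% of all genes) and 8 in LM1-LM (36.5%), where 1 member, Klf2, passed as lower (35.9%) but not without replicate 1. Since the members were chosen with this comparison known, nothing is read from these counts. The median log2 fold change of the members was 0.81, 0.99, 0.99 and 1.04 in the 4 lines, beside medians over all genes of 0.00, -0.01, -0.00 and 0.00. Over 2-fold higher were 2 members in MYAZ16.1e and 5 in each other line, where 3.78%, 6.93%, 9.06% and 9.76% of all genes were.

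**Figure D1:**
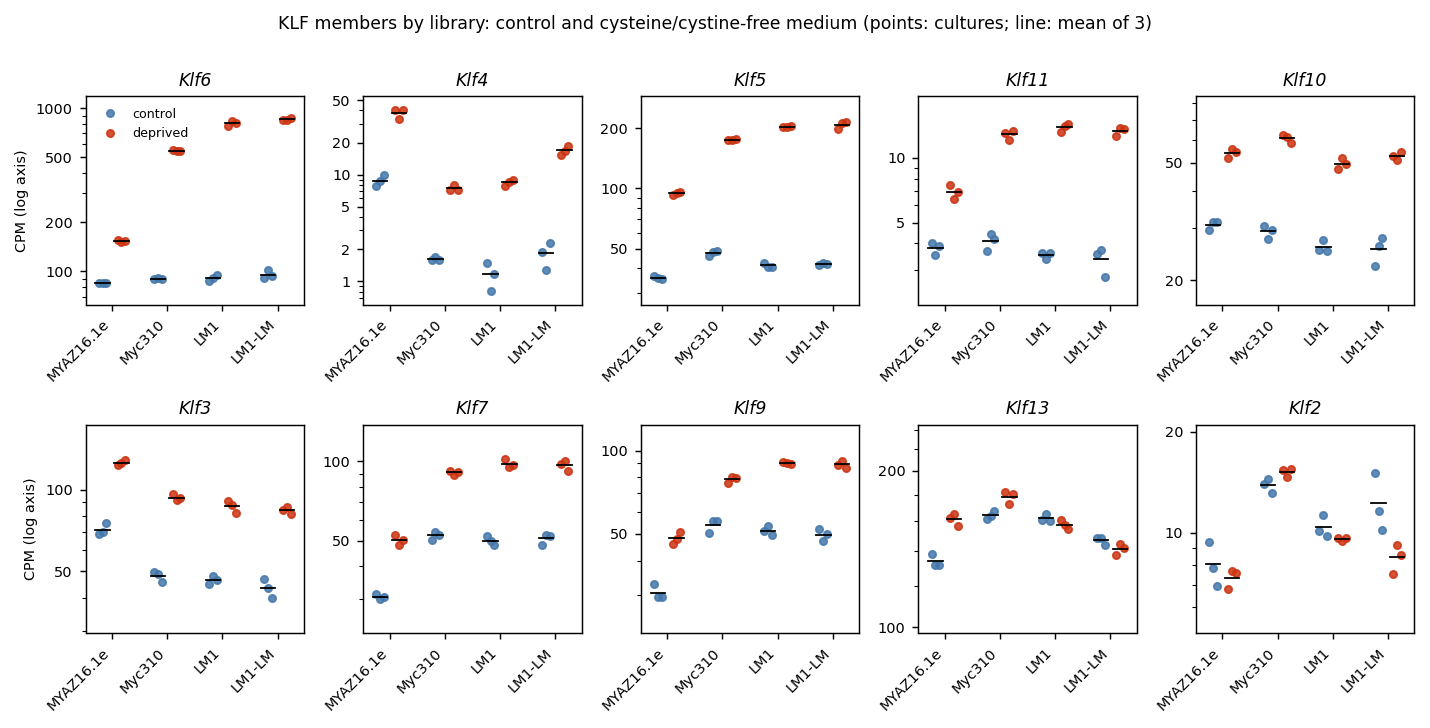
Level of each of the 10 members in CPM (vertical log axis) in control medium (blue) and in cysteine/cystine-free medium (red) for the 4 deprived lines; each point is 1 culture and each bar the mean of 3. Klf6 reached 774 to 874 CPM in the deprived LM1 and LM1-LM cultures from 87.8 to 102 CPM in their controls, whereas Klf13 and Klf2 were less separated.

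Klf6, an activator first described in injured liver and known as a tumour suppressor gene, was the most abundant member per exon length in every group of deprived cultures. In MYAZ16.1e the 3 control cultures held 85.2, 84.3 and 84.7 CPM and the 3 deprived cultures 155, 151 and 153 CPM. In Myc310 the controls held 89.3, 91.6 and 89.5 CPM and the deprived cultures 551, 548 and 549 CPM. All 4 lines thus began from nearly the same level, and every deprived culture lay above every control. In LM1 the level was 87.8, 91.6 and 94.6 CPM in controls and 774, 833 and 811 CPM after deprivation, and in LM1-LM 90.8, 102 and 94.2 CPM against 843, 850 and 874 CPM. The ratio of mean CPM, deprived over control, was 1.81, 6.09, 8.82 and 8.95 in the 4 lines. On the log2 scale of the fit this was 0.85 ± 0.03, 2.59 ± 0.03, 3.18 ± 0.03 and 3.20 ± 0.03 (SE), which ranked Klf6 814th of 13400 genes from the top in MYAZ16.1e and 198th, 178th and 164th in the other lines.

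Klf4, one of the reprogramming factors and a regulator of epithelial differentiation, had a different starting point in each lineage. MYAZ16.1e held 7.77, 8.64 and 9.99 CPM in control medium and 40.1, 33.3 and 40.1 CPM when deprived. Myc310 held 1.58, 1.67 and 1.59 CPM in control medium and 7.10, 7.93 and 7.21 CPM when deprived, so that its deprived cultures only reached the level of the MYAZ16.1e controls. LM1 went from a mean of 1.16 CPM (SD 0.341) to 7.90, 8.54 and 8.92 CPM, and LM1-LM from 1.89, 1.29 and 2.29 CPM to 15.4, 16.5 and 18.7 CPM. The log2 fold changes, 2.09 ± 0.11, 2.18 ± 0.17, 2.91 ± 0.18 and 3.25 ± 0.15 (SE), thus sat on control counts of only 18 to 49 per library in Myc310, LM1 and LM1-LM, against 155 to 294 in MYAZ16.1e. By level, the highest Klf4 of any library in the series was that of deprived MYAZ16.1e, at 40.1 CPM.

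Klf5, an activator of cell growth in epithelia, followed the order of the lines seen for Klf6 with smaller steps. MYAZ16.1e went from 36.3, 35.7 and 35.3 CPM to 93.1, 94.5 and 96.3 CPM, and Myc310 from 46.0, 48.2 and 48.4 CPM to 174, 174 and 176 CPM. LM1 held 42.3, 40.5 and 40.5 CPM in control medium and 202, 203 and 206 CPM when deprived. LM1-LM held 41.2, 42.5 and 41.8 CPM in control medium and 198, 211 and 214 CPM when deprived. The groups did not overlap in any line, and the log2 fold changes were 1.40 ± 0.03, 1.87 ± 0.03, 2.34 ± 0.03 and 2.35 ± 0.03 (SE).

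Klf7, known for its part in the developing nervous system, is the remaining activator that was higher in all 4 lines. Its mean level was 30.8 ± 0.671 CPM in control and 50.4 ± 2.20 CPM in deprived MYAZ16.1e (SD, n = 3), and 50.2 to 52.4 CPM in controls against 90.9 to 98.1 CPM in deprived cultures of the other 3 lines. The log2 fold changes lay between 0.71 and 1.00. Klf2, an activator best known from endothelium under flow and from resting T cells, was the exception of this branch. In Myc310 it held 14.0, 14.5 and 13.2 CPM in controls and 15.4, 14.7 and 15.6 CPM when deprived, so that the groups were barely apart. In LM1-LM it held 15.1, 11.6 and 10.2 CPM in controls and 7.53, 9.23 and 8.60 CPM when deprived. The log2 fold changes of Klf2 were -0.12 ± 0.12, 0.12 ± 0.10, -0.09 ± 0.12 and -0.51 ± 0.11 (SE), so that 3 of the 4 were within about 1 SE of zero. The value in LM1-LM rested partly on the control culture at 15.1 CPM, and was -0.26 without replicate 1.

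Klf3, the repressor that binds CtBP and is known from fat and blood cell differentiation, was higher by a like factor in each line, although its control level was not alike. MYAZ16.1e went from 68.7, 69.6 and 75.3 CPM to 124, 125 and 128 CPM, while Myc310 went from 49.7, 48.7 and 45.7 CPM to a mean of 93.5 CPM (SD 2.18). LM1 held 44.9, 48.1 and 46.3 CPM in control medium and 90.6, 87.5 and 82.1 CPM when deprived, and LM1-LM 46.7, 43.4 and 39.9 CPM and 83.8, 86.4 and 81.7 CPM. The log2 fold changes were 0.81, 0.95, 0.94 and 0.99, each with an SE of 0.04 or 0.05. MYAZ16.1e was thus the highest of the 4 lines in both media.

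In the branch that recruits SIN3, Klf11 and Klf10, both known as TGF-beta-inducible early genes, were higher in all deprived cultures. Klf11 was scarce, with 4.01, 3.52 and 3.87 CPM in control and 7.49, 6.43 and 6.90 CPM in deprived MYAZ16.1e, and with 3.61, 3.39 and 3.61 CPM in control and 13.2, 14.1 and 14.3 CPM in deprived LM1. The log2 fold changes of Klf11 were 0.86 ± 0.11, 1.63 ± 0.10, 2.01 ± 0.11 and 2.01 ± 0.11 (SE), the same order of lines as for Klf6. Klf10 showed no such order. Its control means were 25.5 to 30.8 CPM, its deprived means 49.7 to 60.5 CPM, and its log2 fold changes 0.80, 1.03, 0.97 and 1.09.

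Klf9, which glucocorticoid and thyroid hormone induce, had log2 fold changes of 0.66, 0.54, 0.85 and 0.88, from a control mean of 30.7 CPM in MYAZ16.1e and of 49.7 to 53.8 CPM in the other lines. Klf13, studied in T cells and heart, was abundant and had small differences. Its log2 fold changes were 0.26, 0.11, -0.00 and -0.02, each with an SE of 0.03. In LM1 and LM1-LM its sign depended on the fit, with values of -0.08 to 0.00 and -0.10 to 0.00 over 11 fits that changed the scaling, the filter or the replicates. Klf16, of the same branch but not a member, was lower in every deprived culture, from 51.8, 52.3 and 53.2 CPM to 33.4, 31.8 and 31.6 CPM in MYAZ16.1e and from 61.3, 59.9 and 62.8 CPM to a mean of 20.4 CPM (SD 0.495) in LM1-LM. Its log2 fold changes were -0.71, -1.11, -1.43 and -1.55, opposite in sign to Klf3, Klf4, Klf5, Klf6, Klf7, Klf9, Klf10 and Klf11.

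**Figure D2:**
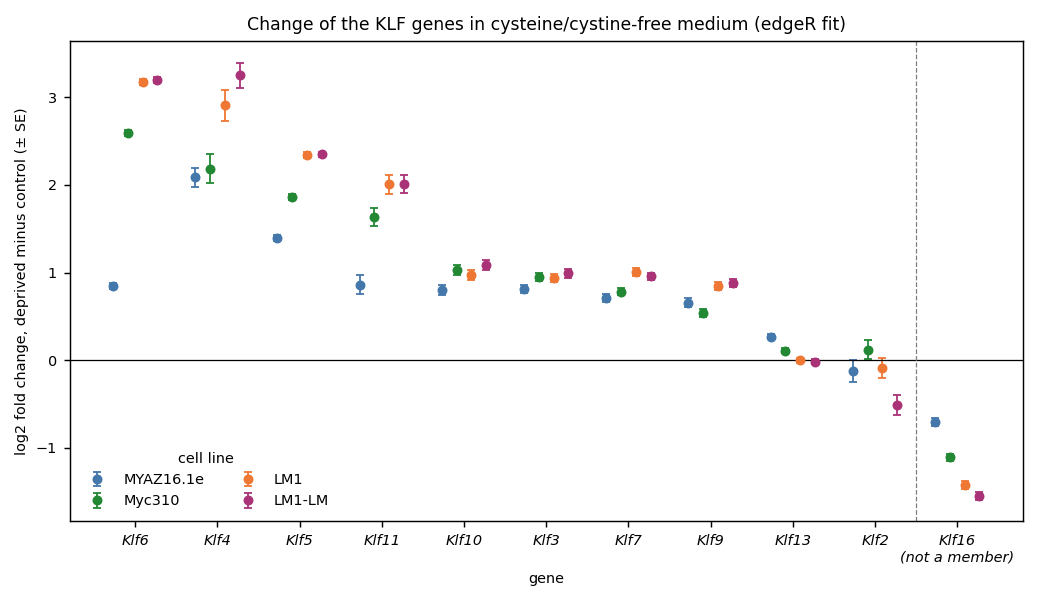
Log2 fold change, deprived minus control (vertical axis, points with SE bars from the edgeR fit), of the 10 members and of Klf16 in the 4 deprived lines. Klf6 lies at 0.85 in MYAZ16.1e and at 2.59 to 3.20 in the other lines, Klf3 and Klf10 differ little between lines, and Klf16 lies between -0.71 and -1.55.

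The lines differed mainly in 4 members. The log2 fold change of Klf6 exceeded that in MYAZ16.1e by 1.75 ± 0.05 in Myc310, by 2.33 ± 0.05 in LM1 and, in LM1-LM, by 2.35 ± 0.05 (SE). For Klf5 the differences were 0.47, 0.94 and 0.95, and for Klf11 0.77, 1.15 and 1.15. Klf4 differed from MYAZ16.1e by 0.10 ± 0.20 in Myc310, less than its SE, and by 0.82 ± 0.22 in LM1 and 1.16 ± 0.19 in LM1-LM. Between LM1 and its parent Myc310 the response of Klf4 was larger by 0.73 ± 0.27, of Klf6 by 0.58 ± 0.05, of Klf5 by 0.48 ± 0.05, of Klf11 by 0.37 ± 0.15, of Klf9 by 0.31 ± 0.07 and of Klf7 by 0.22 ± 0.06. LM1-LM and LM1 were close for 8 of the members, with differences of -0.05 to 0.12, and further apart for Klf4 (0.34 ± 0.27) and Klf2 (-0.43 ± 0.16). These differences come from the comparison that chose the members and were not tested.

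Divided by the length of each gene's merged exons, the CPM values can be compared between members. In control medium Klf13 and Klf6 led in all 4 lines, with 17.8 to 21.8 and 19.3 to 21.8 CPM per kb, and Klf4 and Klf11 were the lowest. The members summed to 76.0 CPM per kb in control MYAZ16.1e and to 132.9 in the deprived cultures. In Myc310 the sum went from 89.4 to 246.4, in LM1 from 84.2 to 305.1 and in LM1-LM from 83.9 to 317.3 CPM per kb. Klf6 made up 25.4% of the sum in control and 26.2% in deprived MYAZ16.1e, while Klf4 went from 3.80% to 9.35% and Klf5 from 9.06% to 13.7% there. In Myc310 its share went from 23.0% to 50.8%, in LM1 from 24.7% to 60.1% and in LM1-LM from 25.9% to 61.4%. Klf13, the leading member of LM1 in control medium with 25.5% of the sum, held 6.86% of it after deprivation. Klf5 was second by this measure in the deprived cultures of Myc310, LM1 and LM1-LM, with 33.6 to 39.98 CPM per kb.

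**Figure D3:**
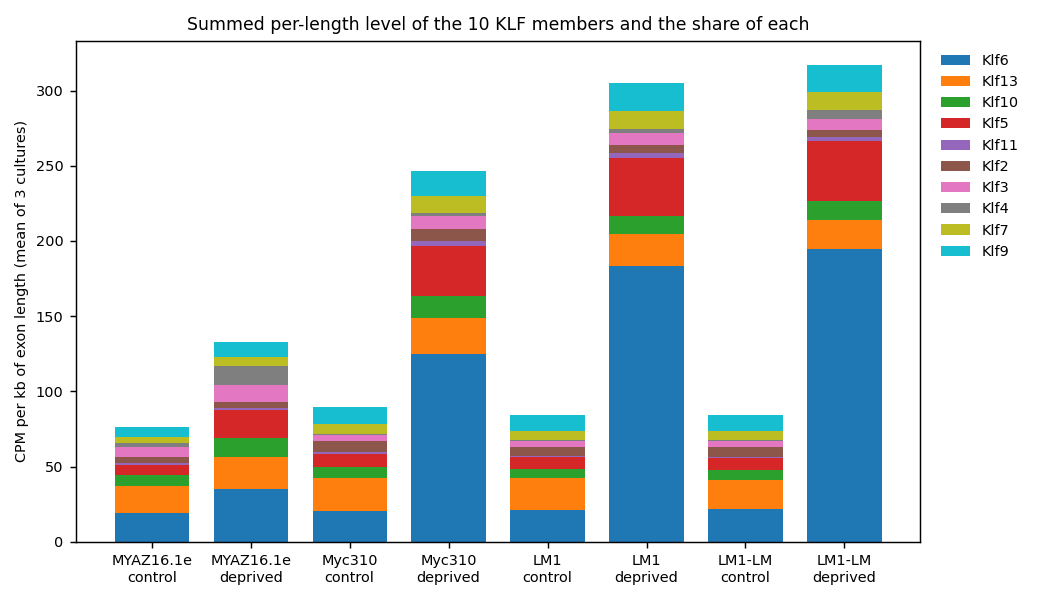
Stacked bars of the mean level of the 10 members in CPM per kb of exon length (vertical axis from 0, mean of 3 cultures) in the 8 groups of the deprivation experiment. The sum goes from 76.0 to 132.9 in MYAZ16.1e with Klf6 at about the same share, and from 83.9 to 317.3 in LM1-LM with Klf6 at 61.4% of it.

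In control medium, lines of the Myc310 lineage were compared with the 3 MYAZ lines. This is another contrast than the one that chose the members, but 12 of its 30 libraries are the controls of that comparison, so it is not fully independent of the choice. Klf3 and Klf4 were lower and Klf5 higher in Myc310, in the LM lines and in the LM-LM lines, and Klf2 was higher, in the test at library level. At library level edgeR passed 5 of 10 members in Myc310 (50.9% of 13795 genes), 6 in LM (60.8%) and 8 in LM-LM (62.8%). None of these counts is read as a result about the members. With the line as a random block in limma voom, 2 members passed in Myc310 (20.4% of all genes), 4 in LM (34.5%) and 6 in LM-LM (36.6%), and in Myc310 neither Klf2 (adjusted p = 0.0711) nor Klf4 (adjusted p = 0.0900) did. When the counts of the 3 cultures were summed so that each line was 1 sample, 4 members passed in LM (23.6% of 16017 genes) and 3 in LM-LM (26.4%). The library-level test treats cultures of 1 line as replicates and so understates the spread between lines. The summed values are therefore given first below, and for 3 lines against 3 the exact two-sided permutation test on line means cannot go below p = 0.1.

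Klf4 separated the lineages most among the members, with line means of 4.74 to 8.80 CPM in the MYAZ lines and of 0.509 to 2.43 CPM in the 7 others. Its log2 difference from MYAZ was -2.01 ± 0.55 in LM (SE, adjusted p = 0.0301) and -2.15 ± 0.55 in LM-LM (adjusted p = 0.0225) in edgeR on summed counts. LM2-LM was the lowest of the 11 lines and MYAZ16.1e the highest, each apart from its neighbour. Klf3 was at 67.5 to 78.6 CPM in the MYAZ lines and at 34.0 to 48.1 CPM in the others, a log2 difference of -0.71 ± 0.13 in LM (adjusted p = 0.00639) and -0.79 ± 0.13 in LM-LM (adjusted p = 0.00383, edgeR). The direction of Klf5 was opposite. Its line means were 29.1 to 35.8 CPM in MYAZ and 41.1 to 47.5 CPM in the others, with log2 differences of 0.40 ± 0.09 in LM (adjusted p = 0.0146) and 0.40 ± 0.09 in LM-LM (adjusted p = 0.0143, edgeR). For all of these the exact permutation p was 0.1, the smallest possible.

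Klf2 and Klf11 showed more spread within the lineages. Klf2 was at 6.94 to 8.08 CPM in the MYAZ lines, at 10.4, 19.3 and 20.0 CPM in LM1, LM2 and LM3, and between 8.38 CPM (LM2-LM) and 15.6 CPM (LM3-LM) in the LM-LM lines. On summed counts it passed in LM (1.20 ± 0.30, adjusted p = 0.0223) but not in LM-LM (0.73 ± 0.30, adjusted p = 0.106, edgeR), where the library-level test had passed it (0.69 ± 0.17, adjusted p = 0.000706). The LM2-LM cultures overlapped those of MYAZ16.1e. Klf11 line means were 3.80 to 5.07 CPM in MYAZ and 3.54 CPM (LM1) or less in the 6 lung-derived lines. Its log2 difference was -0.57 in LM (adjusted p = 0.141) and -0.78 in LM-LM (adjusted p = 0.0522) on summed counts, short of the threshold, and -0.59 (adjusted p = 0.000745) and -0.81 (adjusted p = 1.51e-05, edgeR) at library level.

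Klf6, Klf7, Klf9, Klf10 and Klf13 did not pass on summed counts in either lung-derived group, with adjusted p of 0.117 to 0.972 in edgeR. Klf6, so different between lines after deprivation, had control line means of only 68.9 CPM (MYAZ12.3i) to 113 CPM (LM2-LM), and its log2 difference from MYAZ was 0.03 ± 0.13 in LM and 0.29 ± 0.13 in LM-LM. In the libraries of Myc310 and the lung-derived lines the summed level of 8 epithelial markers, among them the keratins, was 1016 to 2464 CPM, against 339 to 1175 CPM in MYAZ. Epcam and Cdh1 were at 3 counts or fewer in every library of the Myc310 lineage, as were Cldn4 and Esrp1 in both. The summed level of 8 fibroblast markers was 1.70 to 217 CPM in the Myc310 lineage, against 7.46 to 98.1 CPM in MYAZ. Dcn, Lum and Fap were at 3 counts or fewer throughout. Others were abundant in some lines, with Col3a1 at a mean of 199 CPM in LM3-LM and 109 CPM in LM3 against 0.469 CPM in Myc310. In MYAZ12.3i Pdgfra was at 48.3 CPM and Pdgfrb at 33.4 CPM. The summed level of 7 endothelial markers was 0.141 to 0.967 CPM against 3.57 to 7.08 CPM, mostly Kdr, and 7 leukocyte markers summed to 9.48 to 19.9 CPM against 4.26 to 6.31 CPM. Their part in these differences was not tested.

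**Figure D4:**
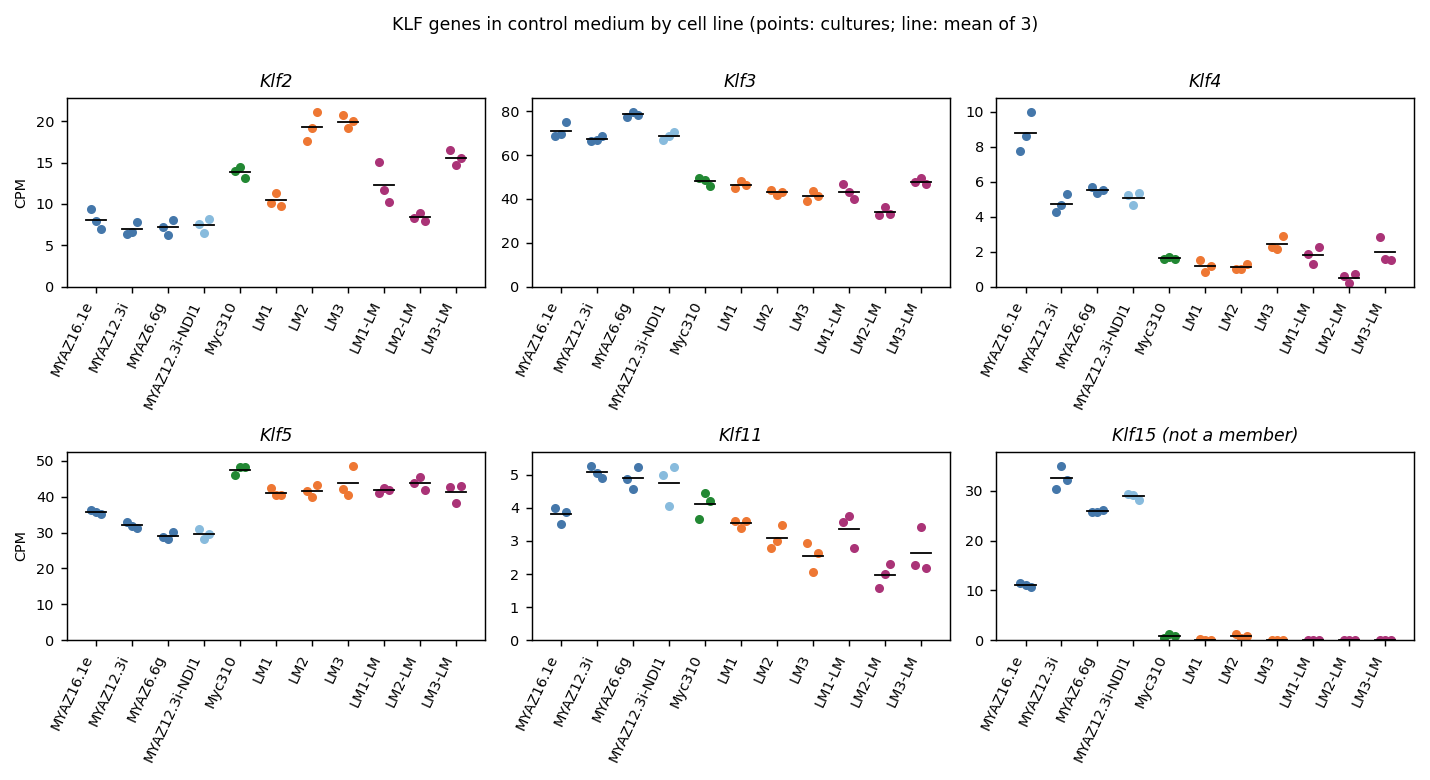
Level in CPM (vertical axes from 0) of Klf2, Klf3, Klf4, Klf5, Klf11 and the non-member Klf15 in control medium in the 11 lines; points are cultures, bars the mean of 3, colours the groups of lines (blue MYAZ, light blue the NDI1 line, green Myc310, orange LM, purple LM-LM). Klf3 and Klf4 are lower and Klf5 is higher in all 7 lines of the Myc310 lineage than in the 3 MYAZ lines, and Klf15 is near 0 in those 7 lines, while the NDI1 line holds 28.2 to 29.4 CPM and its parent 30.3 to 35.1 CPM.

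Among the KLF genes that are not members, Klf15, a glucocorticoid-induced regulator of metabolism, showed the widest gap between lineages. In control medium MYAZ16.1e held 11.5, 11.1 and 10.7 CPM of Klf15 and the MYAZ12.3i mean was 32.6 CPM, whereas Myc310 held 0.513, 1.28 and 0.935 CPM. The LM lines averaged 0.350 CPM and the LM-LM lines 0.0185 CPM, and LM3-LM was at 0 in all libraries. Klf15 passed as lower in both lung-derived groups on summed counts (adjusted p = 0.00316 in LM and 0.000911 in LM-LM, edgeR), and as lower in Myc310 at library level (-4.68 ± 0.69, adjusted p = 1.67e-06). Klf12, a repressor of the CtBP branch, was at 4.87 CPM in MYAZ6.6g, 1.24 CPM in MYAZ12.3i and 0.599 CPM in MYAZ16.1e, so that 1 line carried most of the MYAZ level, and at 0.820 CPM in Myc310, above MYAZ16.1e. It averaged 0.186 and 0.185 CPM over the LM and LM-LM lines, lower than MYAZ with adjusted p of 0.0235 and 0.0211 in edgeR on summed counts. Klf1, Klf8 and Klf17 were at 3 counts or fewer in 42, 44 and 45 of 45 libraries.

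The line that carries NDI1 was compared with its parent MYAZ12.3i in control medium. None of the 10 members passed the threshold in edgeR, where 17.4% of 12841 genes did, and none passed in DESeq2. Two-sided unadjusted p fell under 0.05 for 2 members, Klf5 (-0.13 ± 0.05, from 32.1 to 29.6 CPM) and Klf7 (-0.13 ± 0.05, from 52.0 to 47.6 CPM), with adjusted p of 0.128 and 0.102. The value of Klf7 was -0.04 (adjusted p = 0.681, edgeR) without replicate 2 and -0.21 (adjusted p = 0.0417) without replicate 3. Klf15, not a member, was at -0.17 ± 0.06 (adjusted p = 0.0525, edgeR). The log2 differences of the members ran from -0.13 to 0.09 and their 95% intervals from -0.39 to 0.38, and differences beyond these bounds lay outside all of the intervals. With 1 engineered line, the transgene and the history of the line cannot be told apart.

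Genes that share sites, partners or upstream signals with the KLFs were read in the deprivation fit as 8 lists with 68 genes. Of these, 62 passed the filter of the fit. The lists were chosen with earlier results of these data known, and most named genes by the size of their change in this comparison. The counts and adjusted p of all 8 lists are therefore given as a description and not as independent tests. The background was 26.6%, 32.8%, 35.8% and 36.5% of all genes higher and 27.1%, 33.9%, 35.3% and 35.9% lower in the 4 lines. Of 4 SP factors tested, 3 rose in Myc310, LM1 and LM1-LM, and 1 rose and 1 fell in MYAZ16.1e. Sp1, the widely expressed activator at GC boxes, was at 121 to 139 CPM in controls, and its log2 fold change was 0.07 in MYAZ16.1e (adjusted p = 0.0841), and 0.25, 0.57 and 0.66 in the other lines (adjusted p = 1.77e-17 in LM1-LM, edgeR). Sp2 and Sp3 rose in the last 3 lines by 0.33 to 0.75. The median of the list was 0.04 in MYAZ16.1e and 0.29, 0.50 and 0.60 in the other lines, beside medians over all genes near zero.

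The 11 cofactors were split in direction, with 3 or 4 higher and 4 to 6 lower in each line and medians of -0.12 to -0.03. Crebbp, the acetyltransferase CBP that KLF activators bind, rose in all 4 lines, from 58.2 ± 3.92 CPM in LM1-LM controls to 108 ± 4.57 CPM (SD, n = 3; log2 fold change 0.93, adjusted p = 2.50e-16, edgeR). Kat2a, the acetyltransferase GCN5, fell in all 4, from 204 ± 6.65 to 97.9 ± 3.12 CPM in LM1 (-1.02, adjusted p = 5.88e-21). Of 6 ubiquitin ligases that act on KLF proteins or their partners, 2 rose in MYAZ16.1e, 4 in Myc310 and 3 in each lung-derived line, and none fell. Smurf1 rose by 0.17 to 0.49, and Itch by 0.25 to 0.46 in the 3 lines other than MYAZ16.1e, where its value was 0.05.

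Upstream pathways were split in direction. Of 6 genes of the ERK5, MEF2 and SRF pathways that drive Klf2 and Klf4 in other cells, 1 or 2 rose and 1 to 3 fell in each line. Mef2a, a MADS-box activator, rose by 0.48, 1.07, 1.40 and 1.39, while Mef2c was under 1.2 CPM in every group and did not pass in any line. Srf, the serum response factor gene, fell in all 4 lines (-0.67, -0.86, -0.97 and -1.01). Like Tgfb1, Tsc22d3, Per1, Fkbp5 and Zbtb16 below, Srf was named after the values were seen and outside the rule of largest change. In the TGF-beta and SMAD list of 9 genes, 5, 3, 4 and 4 rose and 1, 2, 4 and 5 fell. Its feedback inhibitors Smad7 and Skil rose in all 4 lines, Smad7 from 27.5 ± 0.366 CPM in LM1 controls to 67.9 ± 3.41 CPM (SD, n = 3; log2 fold change 1.34, adjusted p = 3.85e-16, edgeR) and Skil by 0.75 to 1.39. The ligand gene Tgfb1 fell in all 4 lines (-0.32, -0.57, -0.95 and -1.19).

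In the glucocorticoid list 5 of 7 genes rose in each line and 1, 1, 2 and 2 fell, with medians of 0.28, 0.49, 0.79 and 0.87. Of the known glucocorticoid targets in it, Tsc22d3 rose by 1.18, 1.53, 1.77 and 1.86 and Per1 by 0.27 to 0.87. The genes that fell, also known targets, were Fkbp5 (-0.10, -0.06 and -0.12 in MYAZ16.1e, LM1 and LM1-LM; -0.02 in Myc310, which did not pass) and Zbtb16 (-0.36, -0.51 and -0.83 in the Myc310 lineage; -0.06 in MYAZ16.1e, which did not pass). All cells were seeded in medium with hydrocortisone, and the supplements of the medium used for the 6 h are not given in the sources used here. Sgk1, a kinase gene that glucocorticoid and stress induce, went from 57.8 ± 4.01 to 315 ± 16.5 CPM in LM1 (SD, n = 3; 2.48, adjusted p = 8.59e-29, edgeR) and rose by only 0.59 in MYAZ16.1e. Dusp1, a phosphatase of MAP kinases, rose by 0.88 in MYAZ16.1e and by 1.81 to 2.30 in the other lines, and the receptor gene Nr3c1 by 0.28 to 0.57. In the clock list of 9 genes, to which Klf9 and Klf10 are tied as outputs, 4 rose and 3 fell in MYAZ16.1e and 5 rose and 4 fell in each other line. Arntl, the clock activator BMAL1, rose by 0.80 to 1.81, and Nr1d1, its repressor REV-ERBα, fell by 0.68 to 1.97 on the log2 scale.

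Of 10 tested genes known as KLF targets, 5 rose in each line and 1 to 3 fell. Cdkn1a, the cell cycle inhibitor p21 that Klf4 and Klf6 can activate, went from 26.5 ± 1.06 to 86.9 ± 4.07 CPM in MYAZ16.1e (SD, n = 3; 1.70, adjusted p = 8.75e-26, edgeR) and rose by 1.23 in Myc310 and by 1.64 in LM1 and LM1-LM. Its values in MYAZ16.1e and the lung-derived lines were close, and their difference was not tested. Lgals3, galectin-3, rose by 0.43, 0.96, 1.20 and 1.20. Txnrd2, the mitochondrial thioredoxin reductase, rose by 0.17 to 0.29 in the Myc310 lineage, and its value in MYAZ16.1e, 0.12, did not pass (adjusted p = 0.162).

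**Figure D5:**
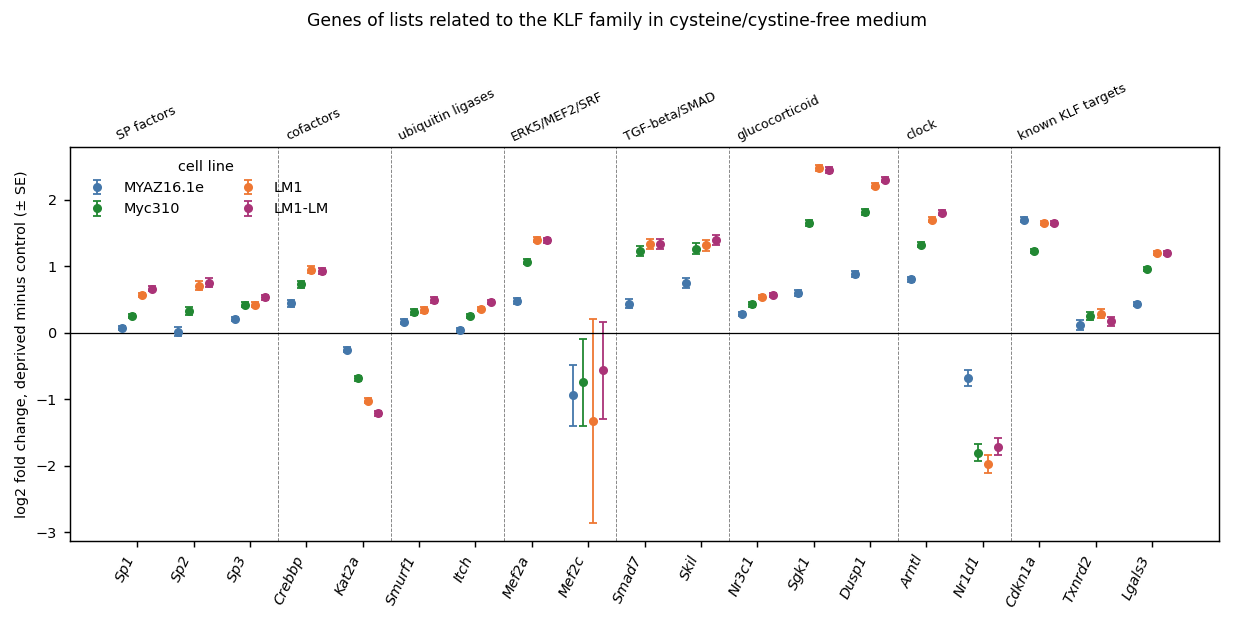
Log2 fold change, deprived minus control (vertical axis, points with SE bars from the edgeR fit), of the genes named from 8 lists related to the KLF family, in the 4 deprived lines. Sgk1 and Dusp1 reach 2.48 and 2.30, Kat2a and Nr1d1 lie below 0 in all lines, and Cdkn1a lies between 1.23 and 1.70.

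The genes with the most similar profile to each member were found by Pearson correlation of mean log2 CPM over the 15 combinations of line and medium, among the 8963 genes whose mean log2 CPM reached 3. These 15 points include the deprived groups that chose the members, so the values describe and test nothing. Klf5 was closest to Wars1 (r = 0.995) and Sqstm1 (0.993), Klf6 to Gnpnat1 (0.992) and Pop4 (0.991), and Klf11 to Lhfpl2 (0.990) and Nr1h4 (0.985). Klf3 and Klf4 shared Trim26 as their closest gene (0.970 and 0.963), followed by Bcl2l1 (0.964) and Arhgef18 (0.953). Klf7 was closest to Stk40 and Kdm5b (0.965 and 0.962), Klf9 to Serinc1 and Rbm6 (0.967 and 0.965), and Klf10 to Tcim and Sipa1l2 (0.965 and 0.953). Klf2 and Klf13 had less close partners: Ank and Pyurf for Klf2 (0.924 and 0.905), and Fuz and Aox1 for Klf13 (0.866 and 0.864).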

How the data were processed

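The deposited table holds whole-number read counts per gene; per the methods of the study the authors aligned reads with STAR and quantified them with RSEM in the nf-core RNA-seq pipeline, and the submitters' processing notes name GRCm38. Whether counting used strand is not given in the sources used here; Klf3 and Klf7 overlap genes on the other strand. Groups were taken from the labels. The members and all gene lists were chosen with earlier results of these data known.

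Counts were fitted with edgeR 4.0.16 in R 4.3.3 (TMM, filterByExpr, quasi-likelihood test, Benjamini-Hochberg over all genes, adjusted p under 0.05): 24 libraries for deprivation, 30 control libraries of 10 lines for lineage, 6 for NDI1. CPM used library totals times TMM factors over all 45 libraries, and log2 fold changes the TMM factors of each fit. Genes above 3 counts were taken as detected. Depth, 19517859 to 29019988 counts, limits the KLF genes with few counts; intervals cover counting and culture error only. Named genes were all members, the other KLF genes, the 2 genes of each related list with the largest mean absolute change plus Txnrd2, Cdkn1a, Nr3c1 and Sp1, and the 2 closest profiles per member. Alternatives were RLE and upper-quartile scaling, other count filters (at least 1 or 10 counts), DESeq2 1.42.0, limma 3.58.1 with the line as a block, counts summed per line, left-out lines and replicates, a replicate block and smaller fits. The scripts were tested on simulated data. Gene lengths and positions came from GENCODE M21 (GRCm38) and promoters from RefSeq (GRCm38.p6). Promoters were read for 8 of 10 members.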

Additional observations from a re-analysis of the deposited data

Results flagged for a closer look

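Klf5 had 1 culture far from the rest among the 9 control libraries of the LM lines: a culture of LM3 held 48.7 CPM, and the gap to the next was large for the range of the group. By chance about 1 in 20 sets of values gives a flag of this kind, and 30 sets were checked, so chance alone can give 1 flag. The 9 libraries are also cultures of related lines and not independent of each other.

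The sign of the Klf2 log2 fold change under deprivation differed between lines. The 95% intervals were -0.0955 to 0.334 in Myc310 and -0.324 to 0.149 in LM1, so neither sign is settled. All 3 deprived Myc310 cultures were above their controls, with a log2 fold change of 0.119, whereas all 3 were below them in LM1 (-0.0873) and in LM1-LM (-0.513). The LM1-LM value was -0.26 without replicate 1. The difference was not tested, and the level of Klf2 was under 16 CPM in all of these libraries.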

How the results depend on the processing

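Of 400 refitted log2 fold changes of members under deprivation, 381 moved by less than the spread between cultures, no called value changed sign and the largest move was 0.26. Of 450 refitted differences of responses between lines 52 moved by more than this spread, 18 changed sign and the largest move was 0.39. Of 617 refitted member differences between lineages 39 crossed the threshold and 10 changed sign, none of them past the threshold in either fit, with moves of up to 0.47. Without replicate 1, members past the threshold were 8 against 9 in Myc310 (Klf13 lost) and 8 against 9 in LM1-LM (Klf2 lost), and with upper-quartile scaling Klf13 passed as lower in LM1 (-0.08) and LM1-LM (-0.10), giving 9 against 8 and 10 against 9. Calls of all genes in control medium depended on the unit of replication. With the line as a random block in limma voom, genes past the threshold were 2819 in Myc310 against 7022, 4759 in LM against 8385 and 5054 in LM-LM against 8661, and members 2 in Myc310 against 5. With counts summed per line they were 3788 in LM and 4226 in LM-LM, and members 3 in LM-LM against 8. At library level single lines decided some calls. Klf9 in Myc310 was 0.16 (adjusted p = 0.0753, edgeR) and Klf7 in LM 0.12 (adjusted p = 0.348) without MYAZ16.1e, and Klf7 in LM also missed the threshold without LM2 (0.21, adjusted p = 0.181) or MYAZ6.6g (0.32, adjusted p = 0.0555). Klf6 in LM-LM was 0.15 (adjusted p = 0.0583) without LM2-LM, and Klf13 in LM-LM was -0.05 (adjusted p = 0.448) without MYAZ12.3i, -0.11 (adjusted p = 0.147) without LM2-LM and -0.13 (adjusted p = 0.0839, edgeR) without MYAZ6.6g. Gained were Klf7 in Myc310, Klf9 in LM and Klf9 in LM-LM without MYAZ12.3i, Klf13 in LM without MYAZ16.1e and Klf10 in LM-LM without LM3-LM. For NDI1, leaving out each replicate gave 898 to 1326 genes against 2236 and 0 to 1 members, Klf7 without replicate 3 (log2 fold change -0.21, adjusted p = 0.0417 in edgeR; -0.04, adjusted p = 0.681, without replicate 2). Replicate numbers did not pair the cultures: over 12 pairs the correlation of deviations was -0.39 to 0.30, over 0.1 in 1, and 3 cultures correlated best with their own number. With a replicate block the deprivation calls were 7142, 8938, 9494 and 9661 genes in the 4 lines, and 2245 for NDI1. Depth limits Klf4 in Myc310, LM1 and LM1-LM controls, at 18 to 49 counts.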
